A study of Mus musculus with 7 samples.

Results

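The genes described here are the unfolded protein and amino acid stress response, a set of 42 named genes that cover the folding machinery of the endoplasmic reticulum (ER), the disposal of misfolded ER proteins, the sensors of ER stress, and the amino acid genes run by the factor Atf4. All 42 were measured, out of 12393 genes on the array, each read at the brightest of its probe sets. The members were listed by name, and earlier results of these data were known when the list was chosen. There were 5 arrays of mouse primary keratinocytes given Trp63-specific small interfering RNA (siRNA, replicates 1, 2, 3, 4 and 7) and 2 arrays of the same cell type given a non-specific control siRNA (replicates 5 and 6), all collected 48 h after a transient transfection. Trp63 encodes p63, a transcription factor needed for stratified epithelia, and silencing lowers its RNA for a few days without removing the gene. Strain and age were not given in the sources used. The labels do not tell whether replicates came from different cultures, so the p-values measure only how much these samples vary, and that variation may be technical.

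An ER that holds too much unfolded protein signals through 3 sensors, encoded by Ern1, Atf6 and Eif2ak3. The first splices Xbp1 RNA and the second releases a transcription factor, and both raise chaperones and the disposal pathway called ER-associated degradation (ERAD). Eif2ak3, like the kinase that senses amino acid shortage, phosphorylates the initiation factor eIF2, which slows protein synthesis and favours translation of Atf4, whose targets make, import and charge amino acids. In keratinocytes the adhesion proteins of the cell surface and the secreted proteins of the basement membrane fold in the ER. The arrays measured total RNA of each gene, and neither Xbp1 splicing nor Atf4 protein was measured.

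Trp63 itself read between 457 and 541 on the silenced arrays, against 1447 and 1683 on the controls (log2 difference -1.61, limma adjusted p = 1e-05). Median probe set intensity lay between 207 and 214. All 7 measured keratinocyte markers, Krt5, Krt14 and Trp63 among them, fell and lay below both controls in every silenced array. Trp63 is the silenced gene, so its own fall was set by the design. Over all genes 8.57% were called lower, and 24% lay below both controls in every silenced array. In such bulk samples fewer cells of a type and less RNA per cell cannot be told apart. Melanocyte markers such as Dct divided the arrays another way: their mean log2 level was 9.89 in silenced replicate 1, 9.96 in silenced replicate 2 and 9.83 in control replicate 5. On the remaining arrays (silenced replicates 3, 4 and 7, control replicate 6) it lay between 9.35 and 9.42. The poly-A spike probe sets were also higher in silenced replicates 2, 3 and 7 (8.72 to 8.90) than on the other 4 arrays (8.25 to 8.42). Both controls are among those 4. With this split as a block, each difference is therefore that of silenced replicates 1 and 4 alone from the controls. A call lost under it can reflect the fewer arrays compared. The log2 ratio of 3′ to 5′ signal, a mark of RNA integrity, averaged -0.12 in silenced and -0.03 in control arrays for Gapdh, and 0.24 in silenced and 0.41 in control arrays for beta-actin, with p = 0.0476 for each (exact two-sided permutation test, the smallest p that 21 splits allow). The part of these differences in the results was not tested, except where values with a split as a block, or within one level of the melanocyte markers, are given.

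Of the 15 listed folding genes 10 rose and none was called lower at its brightest probe set. That count was 5 without control replicate 5 and 3 without control replicate 6, and it includes Dnajc3, whose probe sets disagree (9 of 14 rose with it set aside). With 31 other genes of ER folding and translocation added, 11 of 46 rose. Of the 19 genes of the Atf4 and serine arms (Atf4, its stress targets, serine and folate enzymes, tRNA synthetases and amino acid carriers) 1 rose, 3 fell and 15 did not pass. Of the 42 members 13 rose and 4 fell. Over all genes on the array 8.03% were called higher and 8.57% lower (16.6% in either direction), and over the genes at or above the median level of all probe sets 12.1% higher and 11% lower. Over single probe sets, the scale on which further probe sets of a gene are given, the shares were 7.83% higher and 8.16% lower. All these shares are from the main fit and were not counted with an array left out or with a block. The median log2 difference was 0.39 over the folding arm, 0.17 over the 5 ERAD genes and -0.04 over the 19 Atf4 and serine genes, beside -0.04 over all genes. A gene passed at a limma adjusted p under 0.05 over all 22626 probe sets, and differences are on the log2(intensity + 16) scale, which understates those of dim genes.

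**Figure D1:**
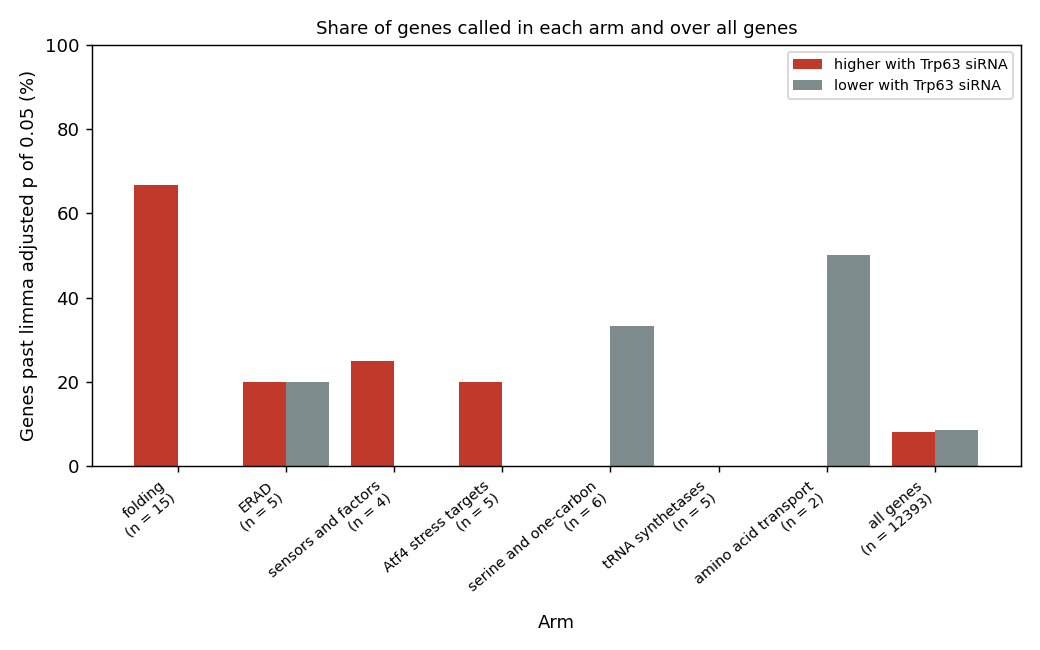
Percentage of genes past a limma adjusted p of 0.05 in each arm, and over all 12393 genes, as bars for genes higher (red) and lower (grey) with Trp63 siRNA. The folding arm stands at 10 of 15 higher and 0 lower, the serine genes at 2 of 6 lower, and all genes at 8.03% higher and 8.57% lower.

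Hspa5, which encodes BiP, the main chaperone of the ER and the brake on all 3 sensors, was higher on every silenced array. It read 4820.5, 6128, 5119.7, 5159 and 5162 in silenced replicates 1, 2, 3, 4 and 7, against 3841 and 3641 in the controls. Its lowest silenced value was above its highest control value. The difference was 1.41-fold (log2 difference 0.49 ± 0.08 SE, limma adjusted p = 0.00338; without control replicate 6, 0.0528), and the second Hspa5 probe set differed by 0.56 (limma adjusted p = 0.00677).

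Other listed partners of BiP that rose were Dnajb9, Dnajb11, Hyou1 and Sdf2l1. Dnajb9 read 902, 1140.4, 924, 1029 and 1035 in silenced cells, against 758 and 729 in controls. Dnajb11 read 1175, 1207, 1138, 1093 and 1171 in silenced cells, against 944 and 930.4 in controls. Both belong to the J-domain proteins that pass clients to BiP, and neither overlapped between groups (1.34-fold and 1.23-fold, limma adjusted p = 0.0163 and 0.013). Hyou1, the nucleotide exchange factor of BiP, read 864, 979, 966, 948 and 909 in silenced cells, against 710.0 and 709 in controls (1.31-fold, limma adjusted p = 0.00619). Sdf2l1, a partner of Dnajb11, read 637, 780.0, 771, 702 and 709 in silenced cells, against 573 and 571 in controls (1.25-fold, limma adjusted p = 0.0378). The 2 control values of Hyou1 and of Sdf2l1 were nearly equal, and all silenced values were above them. Leaving out control replicate 6 ended the call of each of these 4 genes (limma adjusted p between 0.0615 and 0.171), and leaving out control replicate 5 that of all but Hyou1 (between 0.0732 and 0.169). Sdf2l1 also lost its call without any of silenced replicates 2, 3, 4 and 7. Under a block for the spike split Dnajb9 (0.0993), Dnajb11 (0.0757) and Sdf2l1 (0.186) did not pass. Their log2 differences there, silenced replicates 1 and 4 against the controls, were 0.37, 0.27 and 0.22.

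Dnajc3, another J-domain co-chaperone, which also inhibits eIF2 kinases, depended on the probe set. The brightest read 737, 886, 767, 762 and 790.4 in silenced cells, against 624 and 571 in controls (log2 difference 0.39, limma adjusted p = 0.0142, 0.136 without control replicate 6 and 0.0886 under the spike block). The other 4 Dnajc3 probe sets lay below 0, between -0.31 and -0.02, and 1 of them passed the test as a fall (-0.29, limma adjusted p = 0.0495). The direction for Dnajc3 is therefore uncertain, and it was the only member with called probe sets in both directions.

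The secreted or lumenal factors Manf and Creld2 had the largest log2 differences of the 42 at the probe sets used. Manf, an ER-stress-induced protein with trophic activity, read 2864, 3412, 2941, 2804 and 2808 in silenced cells, against 2153 and 2021 in controls (1.41-fold, log2 difference 0.50 ± 0.08 SE, limma adjusted p = 0.00308). Creld2, an ER-resident protein of disulfide handling, read 885, 1136, 816, 759 and 818 in silenced cells, against 585 and 540.0 in controls. That was 1.54-fold (log2 difference 0.62 ± 0.14 SE, limma adjusted p = 0.0156), with replicate 2 the highest array for Manf, Creld2 and Hspa5 alike. Creld2 did not pass without control replicate 5 (0.0728), without control replicate 6 (0.131) or under the spike block (0.1).

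Of the 4 protein disulfide isomerase genes, which form and shuffle disulfide bonds, 2 rose. Pdia6 read 1548, 1829, 1747, 1654 and 1662 in silenced cells, against 1237 and 1269 in controls (1.34-fold, limma adjusted p = 0.00418). Pdia4 read 592, 677, 782, 662 and 678 in silenced cells, against 453 and 537 in controls (1.36-fold, limma adjusted p = 0.0234). A second, dim probe set of each gene differed by -0.04 and -0.07, and neither rise passed on the mean of the gene's probe sets. Pdia4 did not pass once control replicate 5 (limma adjusted p = 0.218), control replicate 6 (0.0545) or silenced replicate 7 (0.0532) was left out, or under the spike block (0.135). Pdia3 and P4hb differed by 0.24 and 0.19 and did not pass (limma adjusted p = 0.105 and 0.0537, 95% intervals 0.04 to 0.45 and 0.06 to 0.33). Both passed without silenced replicate 1 (0.00576 and 0.0331), and P4hb also without control replicate 6 (0.0329). With the melanocyte split as a block both passed too (0.0139 and 0.0338).

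The chaperones that handle glycoproteins and late folding did not pass at the probe sets used. Calr and Canx, the lectin chaperones calreticulin and calnexin, differed by 0.16 and -0.02 (limma adjusted p = 0.186 and 0.93). A second Calr probe set passed (0.22, limma adjusted p = 0.0452). Hsp90b1, the ER member of the Hsp90 family, read 2753, 4117, 4203, 4104 and 4111 in silenced cells, against 3278 and 3616 in controls. Replicate 1 was below both controls and the other 4 silenced arrays were above them, and the difference of 0.15 did not pass (limma adjusted p = 0.554, 95% interval -0.20 to 0.49). Without replicate 1 it was 0.26 and passed (limma adjusted p = 0.00311). The second Hsp90b1 probe set differed by 0.49 over all arrays and did not pass (limma adjusted p = 0.189).

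**Figure D2:**
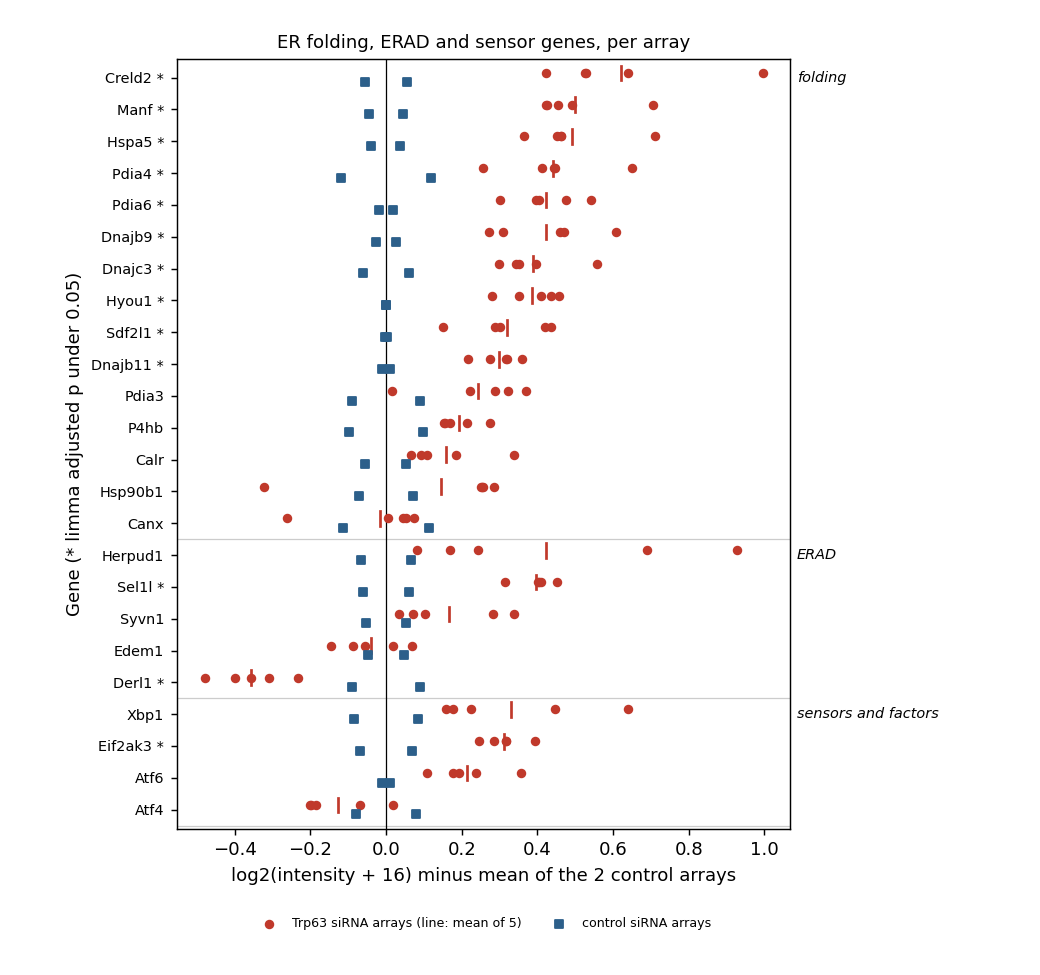
Each row is a gene of the folding, ERAD or sensor arm, and each point an array, as log2(intensity + 16) minus the mean of the 2 control arrays; red circles are the 5 Trp63 siRNA arrays with their mean as a line, blue squares the 2 control arrays, and a star marks a limma adjusted p under 0.05. The silenced arrays of 12 of 15 folding genes lie to the right of both controls, and Hsp90b1 has 1 silenced array far to the left.

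Silenced and control arrays did not overlap for 12 of the 15 folding genes, all with silenced arrays above, and 14.3% of all genes had silenced arrays above both controls. Within the arrays of high and of low melanocyte level, 14 of 15 folding genes were higher in silenced cells in both, with medians of 0.37 and 0.38. Each level holds 1 control array, so these differences have no replicate check. They come from the same arrays as the main difference, and the share over all genes was not counted. A block for the spike split, which compares silenced replicates 1 and 4 with the controls, left 4 folding genes that rose, with a folding median of 0.32. Manf and Pdia6 were the 2 members whose rise passed without either control in turn.

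The promoters of the folding genes were searched for the ER stress response element (ERSE), the known site of Atf6 with the factor NF-Y: CCAAT, then any 9 bases, then CCACG. Promoters were RefSeq windows on GRCm38.p6, 250 bases before to 50 after a gene's start, searched on both strands. They were found for 35 of the 42 members. An ERSE was present in 7 of 13 folding genes with a promoter (Calr, Canx, Creld2, Dnajc3, Hsp90b1, Hspa5 and Pdia6) and in 0.119% of all 32851 promoters. None of 16 genes of the Atf4 and serine arms with a promoter held it. Over all 27025 genes with a promoter the share was 0.137%. So rare a site would seldom occur in 16 genes, and its absence there gives no contrast. Calr, Canx and Hsp90b1 held one and did not pass, and Pdia4, Dnajb9, Dnajb11 and Sdf2l1 rose with none in this window. Thus 4 of the 8 folding genes that rose and had a promoter held the site. Manf and Hyou1 also rose and had no promoter entry. The genes were listed as members of this pathway, so the share with a site is no test of their rise. The upstream stretches of the 4 genes that rose at their brightest probe set and held an ERSE (Dnajc3, with its uncertain direction, among them) are shown so that the site can be seen in its setting, 5′ to 3′ on the gene's strand, with the fixed letters of the site in capitals (in Creld2 the site reads on the other strand, as CGTGG and ATTGG).
Hspa5, chr2:34771840-34772089, plus strand: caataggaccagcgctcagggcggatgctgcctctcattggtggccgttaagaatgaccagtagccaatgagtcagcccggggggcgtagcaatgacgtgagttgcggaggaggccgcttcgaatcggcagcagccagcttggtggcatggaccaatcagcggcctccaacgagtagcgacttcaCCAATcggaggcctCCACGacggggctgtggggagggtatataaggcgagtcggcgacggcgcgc
Pdia6, chr12:17266339-17266588, plus strand: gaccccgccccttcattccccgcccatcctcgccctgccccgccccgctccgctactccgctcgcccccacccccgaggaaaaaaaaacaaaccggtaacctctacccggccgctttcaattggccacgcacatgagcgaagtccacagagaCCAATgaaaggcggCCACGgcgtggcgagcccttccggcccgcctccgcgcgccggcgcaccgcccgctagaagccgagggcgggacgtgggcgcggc
Dnajc3, chr14:118937682-118937931, plus strand: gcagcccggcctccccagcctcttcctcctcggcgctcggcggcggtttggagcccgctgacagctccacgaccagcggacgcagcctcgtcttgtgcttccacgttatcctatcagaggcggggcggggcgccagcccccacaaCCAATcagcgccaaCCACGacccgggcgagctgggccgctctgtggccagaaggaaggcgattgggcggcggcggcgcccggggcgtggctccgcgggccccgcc
Creld2, chr15:88819396-88819645, plus strand: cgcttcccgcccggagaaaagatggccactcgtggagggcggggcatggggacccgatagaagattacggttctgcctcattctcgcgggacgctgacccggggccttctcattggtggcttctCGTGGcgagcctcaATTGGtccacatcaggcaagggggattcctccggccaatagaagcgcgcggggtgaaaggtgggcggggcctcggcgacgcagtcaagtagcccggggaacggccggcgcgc

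The site began 65 bases before the start in Hspa5, 98 in Pdia6, 105 in Dnajc3 and 126 in Creld2. The related form ERSE-II (ATTGG, any 1 base, CCACG) was present in Dnajb11 and in the ERAD gene Herpud1, and in 0.0365% of all promoters. The Xbp1 site TGACGTGG was in no member's window and in 0.676% of all promoters. All 3 motifs contain the letters CCACG or their complement, and no matches of different motifs overlapped in the members.

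Of the 5 ERAD genes 1 rose and 1 fell. Sel1l, the scaffold of the main ERAD ubiquitin ligase, read 562, 579, 558, 525 and 559 in silenced cells, against 401 and 438 in controls. It rose 1.32-fold (log2 difference 0.40, limma adjusted p = 0.00512), and 3 of its 4 probe sets passed in that direction. Without control replicate 5 it did not pass (0.0638). Syvn1, the ligase that Sel1l carries, differed by 0.17 (limma adjusted p = 0.284), and Edem1, which hands misfolded glycoproteins to ERAD, by -0.04 (limma adjusted p = 0.761). Derl1, a membrane protein of the exit channel, read 824, 869.9, 731, 773 and 797 in silenced cells, against 962 and 1092 in controls. It fell 1.28-fold (limma adjusted p = 0.0217), as did 1 further Derl1 probe set, while the other 2 did not pass. The Derl1 call was lost without control replicate 6 (limma adjusted p = 0.193), without silenced replicate 4 or 7 (0.0548 and 0.0527), and under a block for the spike split (0.0911).

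Herpud1, an ERAD scaffold induced by Atf6, Xbp1 and Atf4 alike, read 985, 1165, 682, 641 and 719 in silenced cells, against 634 and 577 in controls. Every silenced array was above both controls, but replicates 1 and 2 stood far above the other 3. The difference of 0.42 had a wide 95% interval (-0.06 to 0.90) and did not pass (limma adjusted p = 0.217). Set against the 1 control of the same melanocyte level it was 0.74 at the high level and 0.23 at the low level, and it passed with that split as a block (limma adjusted p = 0.0158).

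Among the sensors, Eif2ak3, the eIF2 kinase of the ER known as Perk, read 319.6, 336, 337, 356 and 329 in silenced cells, against 254 and 281 in controls. It rose 1.24-fold (limma adjusted p = 0.0144), with 2 dimmer probe sets near 0. Its call was lost without control replicate 5 (limma adjusted p = 0.147), and under a block for the spike split (0.0561). Atf6 read 193, 211, 175, 184 and 186 in silenced cells, against 162 and 159.5 in controls, and did not pass (log2 difference 0.21, limma adjusted p = 0.0617; without silenced replicate 3, 0.0494, and with the melanocyte block, 0.0168). Both genes had silenced values above both controls throughout.

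Xbp1, the factor made by splicing and itself a target of Atf6, read 1954, 2234, 1672, 1595 and 1616 at its brightest probe set in silenced cells, against 1515 and 1347 in controls. All silenced arrays were above both controls, and replicates 1 and 2 were the highest. The difference of 0.33 did not pass (limma adjusted p = 0.124), whereas the second brightest probe set did (0.47, limma adjusted p = 0.0224), as did the brightest with the melanocyte split as a block (limma adjusted p = 0.00439). Probe sets cannot be assigned here to the spliced or unspliced form.

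Atf4, the factor at the head of the amino acid arm, did not pass the test. It read 2112, 2246, 1932, 1928 and 1948 in silenced cells, against 2099 and 2342 in controls. The groups overlapped, with silenced replicates 3, 4 and 7 below both controls (log2 difference -0.13, 95% interval -0.30 to 0.05, limma adjusted p = 0.303). The other 2 Atf4 probe sets differed by -0.06 and -0.03. Since Atf4 is controlled largely at translation, its RNA level does not give its activity.

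Of the 5 stress-induced targets, Ddit4, an inhibitor of mTORC1 that also answers to other stresses, was the 1 that rose. It read 1755, 1863, 1845, 1992 and 1925 in silenced cells, against 1365 and 1667 in controls (1.24-fold, limma adjusted p = 0.0349). The call was lost without control replicate 5 (limma adjusted p = 0.306), without any of silenced replicates 2, 3, 4 and 7, and under a block for the spike split (limma adjusted p = 0.13).

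The other 4 stress targets were high on 2 silenced arrays. Ddit3, the death-linked factor Chop, read 539, 652, 345, 332 and 358 in silenced cells, against 389 and 305 in controls. Chac1, an enzyme that degrades glutathione, read 583, 652, 390.3, 394 and 403 in silenced cells, against 409 and 412 in controls. In both genes replicates 1 and 2 were above every other array and the remaining silenced arrays were within or below the control range. Trib3, a pseudokinase that restrains Atf4, read 483, 653, 401, 393 and 406 in silenced cells, against 454 and 419 in controls, and its second probe set had the same order of high arrays. Ppp1r15a, the phosphatase subunit that reverses eIF2 phosphorylation, read 713, 598, 389.8, 487 and 479.9 in silenced cells, against 457 and 353 in controls. Replicates 1 and 2 were again the highest arrays of Trib3 and Ppp1r15a.

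None of these 4 genes passed (log2 differences 0.30 for Ddit3, 0.20 for Chac1, 0.07 for Trib3 and 0.37 for Ppp1r15a, limma adjusted p between 0.255 and 0.828), and the 95% interval of Ddit3, -0.27 to 0.87, allowed a change of either sign. Silenced replicates 1 and 2 were the silenced arrays of high melanocyte level. Within the high level, set against control replicate 5, Ddit3 differed by 0.59, Chac1 by 0.58, Trib3 by 0.30 and Ppp1r15a by 0.50. Within the low level, set against control replicate 6, Ddit3 differed by 0.17, Chac1 by -0.06, Trib3 by -0.07 and Ppp1r15a by 0.34. These are differences from 1 control array and have no replicate check. With the split as a block Ddit3 and Ppp1r15a passed (limma adjusted p = 0.0312 and 0.0178), and Chac1 and Trib3 did not (0.184 and 0.55). Melanocyte markers and these genes were high on the same silenced arrays. So were fibroblast markers, whose median log2 level relative to the control mean was 0.27, 0.21, -0.01, 0.01 and 0.003 in silenced replicates 1, 2, 3, 4 and 7, against 0.09 and -0.09 in control replicates 5 and 6. The part of other cells in this was not tested.

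**Figure D3:**
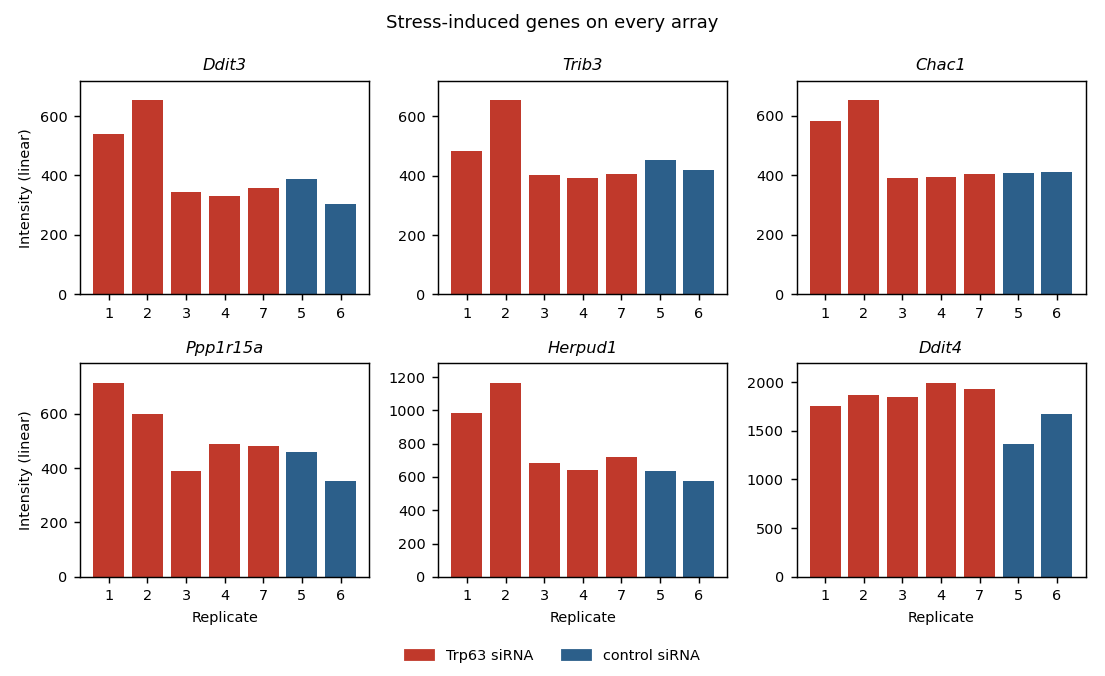
Linear intensity of 6 stress-induced genes on every array, with the 5 Trp63 siRNA arrays in red left of the 2 control arrays in blue and the replicate number below each bar. Silenced replicates 1 and 2 are the highest bars for Ddit3, Trib3, Chac1, Ppp1r15a and Herpud1. All 5 silenced arrays are above both controls for Ddit4 and Herpud1.

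Of the 6 enzymes of serine, asparagine and mitochondrial folate metabolism, known targets of Atf4, 2 fell and none rose. Shmt2, which splits serine to feed the mitochondrial folate pool, read 786, 707, 721, 765 and 769 in silenced cells, against 970.3 and 1121 in controls (1.38-fold lower, log2 difference -0.47, limma adjusted p = 0.00418, SE 0.08). All 4 Shmt2 probe sets fell, with log2 differences of -0.51 to -0.30. Psph, the last step of serine synthesis, read 1012, 1102, 1021, 955 and 1003 in silenced cells, against 1223 and 1346 in controls (1.26-fold lower, limma adjusted p = 0.0163). No silenced array of either gene reached the lower control. Without control replicate 6 neither passed (limma adjusted p = 0.0659 for Shmt2 and 0.156 for Psph).

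The other 4 enzymes of this arm did not pass. Asns, which makes asparagine, read 2026, 2118, 1879.6, 1967 and 1991 in silenced cells, against 2258 and 2254 in controls, all below both (log2 difference -0.18, limma adjusted p = 0.0706; without silenced replicate 1 or 2, 0.0407 and 0.0438, and with the melanocyte block, 0.0337). Mthfd2, the next mitochondrial folate enzyme after Shmt2, differed by -0.22 (limma adjusted p = 0.161), and Psat1, the middle step of serine synthesis, by -0.06 (limma adjusted p = 0.473). Phgdh, the first and committed step, differed the other way (0.19, limma adjusted p = 0.0709; without silenced replicate 1 or 2, 0.0443 and 0.0479, and with the melanocyte block, 0.0147), and its other 3 probe sets lay between 0.07 and 0.09.

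The carriers were lower or not called. Slc7a5, the exchanger that imports leucine and other large amino acids, read 561, 548, 442, 544 and 507 in silenced cells, against 635 and 809.8 in controls. It fell 1.37-fold (log2 difference -0.46, limma adjusted p = 0.029, SE 0.12). That call was lost without control replicate 6 (limma adjusted p = 0.249), without silenced replicate 4 or 7, and under a block for the spike split (0.156). Slc3a2, its heavy chain partner, read between 1037 and 1138 in silenced cells, against 1145 and 1273 in controls, and did not pass (-0.16, limma adjusted p = 0.168). Silenced arrays lay below both controls for 7 of the 42 members, and for 24% of all genes. None of the 4 falls among the members (Derl1, Psph, Shmt2 and Slc7a5) passed without control replicate 6.

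The 5 tRNA synthetase genes, which charge tRNAs with their amino acids, lay within -0.12 and 0.16 of the controls and none passed the limma test after adjustment, while 2 of the 5 (Nars1 and Gars1) were under 0.05 before it. Nars1 was above both controls on all silenced arrays (0.16, limma adjusted p = 0.0568; without silenced replicate 1, 0.0163, and with the melanocyte block, 0.0321) and Gars1 below both (-0.12, limma adjusted p = 0.128). Aars1 (-0.003), Sars1 (-0.04) and Wars1 (0.15) overlapped between groups. Their 95% intervals reached at most 0.33, the upper bound for Wars1.

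**Figure D4:**
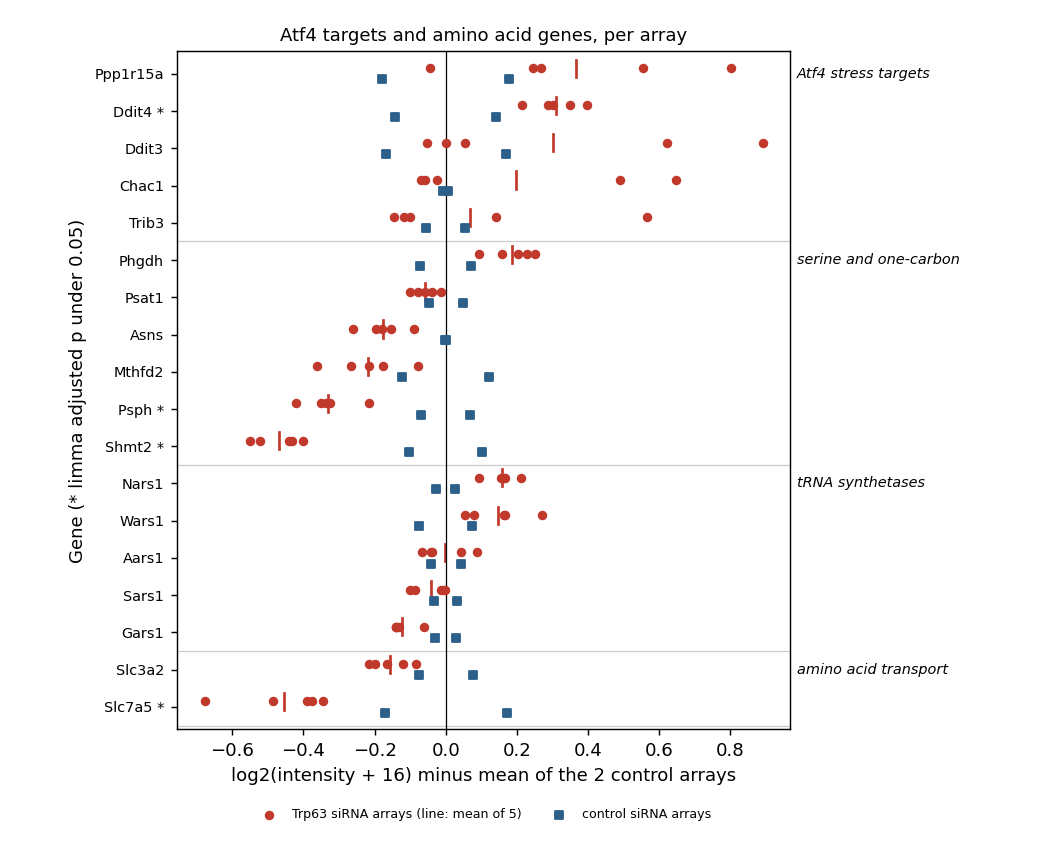
Each row is a gene of the Atf4 and amino acid arms and each point an array, as log2(intensity + 16) minus the mean of the 2 control arrays, with the 5 Trp63 siRNA arrays as red circles (line: their mean) and the 2 control arrays as blue squares; a star marks a limma adjusted p under 0.05. Ddit3 and Chac1 show 2 silenced arrays far to the right of the rest, and Shmt2, Psph and Slc7a5 lie to the left of both controls.

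The element that Atf4 binds with C/EBP partners (searched as TGATGNAA on both strands) was present in 5 of 16 Atf4 and serine genes with a promoter (Aars1, Asns, Chac1, Gars1 and Trib3) and in Herpud1. It was in none of 13 folding genes and in 3.97% of all promoters. Over all 27025 genes with a promoter the share was 4.51%, so absence from 13 genes would be common. None of the 5 Atf4 and serine genes with a match passed the test in either direction. Of the 4 called genes of these arms the 3 with a promoter (Ddit4, Psph and Shmt2) had no match in this window. The upstream stretch of Asns is shown as the contrast to the folding genes, chosen after its values were seen, with the fixed letters of the element in capitals, 23 bases before the start.
Asns, chr6:7693210-7693459, minus strand: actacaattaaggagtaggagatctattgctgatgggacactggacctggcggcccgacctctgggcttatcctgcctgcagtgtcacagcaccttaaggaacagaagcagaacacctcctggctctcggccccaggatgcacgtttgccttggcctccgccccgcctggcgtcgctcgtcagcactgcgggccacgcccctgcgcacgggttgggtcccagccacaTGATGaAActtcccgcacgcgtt

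Further genes of the same pathways, outside the 42, were read from lists. Calls in these lists, and in the heat shock and marker lists below, come from the main fit alone. They were not checked by leaving out arrays or with a block. Over all genes 8.03% were called higher and 8.57% lower. Of the 31 other genes of ER folding and translocation 1 rose and 1 fell (median log2 difference 0.0008). Ppib, an ER prolyl isomerase, rose 1.15-fold to 4398 ± 116 in silenced cells, against 3827 ± 83.4 in controls (SD, n = 5 and 2, limma adjusted p = 0.00964), and Mogs, the first glucosidase of glycan trimming, fell 1.18-fold. Of 19 other ERAD genes 2 rose (Ufd1, 1.21-fold, and Herpud2, 1.19-fold) and 1 fell, Ngly1, the cytosolic enzyme that strips glycans (1.42-fold, limma adjusted p = 0.00652). Of 16 other sensors and eIF2 control genes 1 rose, Creb3l2, a membrane-bound factor related to Atf6 (307 ± 12.9 in silenced cells, against 223 ± 7.15 in controls, limma adjusted p = 0.00199). Of 20 coat and cargo genes of ER export 2 rose, Surf4 (1.24-fold) and Mcfd2 (1.23-fold).

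Among 22 other Atf4 targets 4 fell and 1 rose (median -0.11), in the main fit with its 2 control arrays. Cth, which makes cysteine, fell 1.57-fold (236 ± 17.9 in silenced cells, against 379 ± 30.8 in controls, limma adjusted p = 0.000984). The amino acid carriers Slc38a2, Slc6a9 and Slc1a4 fell 1.46-fold, 1.46-fold and 1.49-fold, the last pair named after their values were seen. Nupr1, a stress-induced nuclear protein, went the other way, with 7521 ± 577 in silenced cells, against 1618 ± 141 in controls (4.61-fold, limma adjusted p = 9.11e-07). Of 13 other tRNA synthetases 2 fell, Lars1 and Farsb, by 1.27-fold each, and none rose.

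Of 18 heat shock genes of the cytosol and mitochondria 5 fell and 3 rose (median -0.08). Hspb1 fell 1.27-fold (8501 ± 247 in silenced cells, against 10821 ± 5.02 in controls) and the mitochondrial co-chaperonin gene Hspe1 fell 1.34-fold. Cryab, a small heat shock protein, rose 3.16-fold (2303 ± 182 in silenced cells, against 725 ± 153 in controls, limma adjusted p = 4.11e-05).

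Markers of other cells were set beside these results. Of 5 plasma cell markers, cells whose ER is enlarged, 1 rose, Prdm1 (516 ± 114 in silenced cells, against 211 ± 90.6 in controls, limma adjusted p = 0.00785), a gene that epidermal cells also use. Their summed intensity was 746 to 1041 in silenced and 524 to 646 in control arrays, and Jchain lay near the floor of the arrays (70.3 to 79.7 in silenced cells, against 79.9 and 82.7 in controls). Of 8 fibroblast markers 1 rose, Col1a1 (1.36-fold), with sums of 1445 to 1779 in silenced and 1274 to 1529 in control arrays. None of 7 melanocyte markers passed, with sums of 6739 to 11857 in silenced and 6576 to 9945 in control arrays. Of 8 immune markers Cd68 rose and Tyrobp fell, with sums of 1424 to 1618 in silenced and 1472 to 1555 in control arrays. None of 6 endothelial markers passed (643 to 713 in silenced and 675 to 737 in control arrays). Their part in the results was not tested.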

How the data were processed

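Biotin-labelled complementary RNA of each sample went onto 1 Affymetrix array, per the labels. The deposited table gives a linear intensity for every probe set; how the authors corrected background, summarised and normalised was not given in the sources used here. Array medians on the log2 scale lay within 0.0434 of each other, and values were used as deposited. Of 22690 probe sets, 64 controls were left out and 22626 tested. In the platform annotation 20380 had 1 gene symbol, 691 several and 1555 none, and 20351 symbols were updated through the Entrez ID.

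Differences in log2(intensity + 16) were tested with limma 3.58.1 (eBayes with trend) in R 4.3.3, adjusted by Benjamini-Hochberg over the 22626 probe sets, with 0.05 as the threshold. The procedure was tested on simulated data. Each adjusted p is from this fit unless another setting is named. All members are named. By plan those that passed, the sensors, Xbp1, Atf4 and Ddit3 have every array's value. Of each other list up to 3 called genes with the smallest p are named. Per-array values of Asns, Hsp90b1 and Herpud1 were added after seeing them, and those of Chac1, Trib3 and Ppp1r15a were also outside the plan. The members and lists were chosen with earlier results of these data known. Alternatives changed normalisation, pseudocount, filter, variance prior, array weights or probe set, or left out each array. Blocks for the melanocyte and spike splits were chosen after seeing the data. Plots used matplotlib 3.10.9 under Python 3.11.15.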

Additional observations from a re-analysis of the deposited data

Results flagged for a closer look

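In 5 of the 42 members 1 silenced array stood apart from the other 4, by the gap to its nearest neighbour as a share of the group's range on the log2 scale. Chance alone flags about 1 in 20 groups. Replicate 1 was low for Hsp90b1 (2753 against 4104 to 4203 on the other silenced arrays, ratio 0.944) and for Canx (2629 against 3167 to 3322, ratio 0.796). Replicate 2 was high for Hspa5 (6128 against 4820.5 to 5162, ratio 0.715), Manf (3412 against 2804 to 2941, ratio 0.757) and Gars1 (2406 against 2277 to 2294, ratio 0.866). Without replicate 2 Hspa5 and Manf kept their calls.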

How the results depend on the processing

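Over 20 other settings, 712 of 822 member values kept their direction and side of the threshold, 50 lost and 36 gained a call, and 24 turned sign. Summed over fits that each left out 1 of the 7 arrays, silenced or control, 33 calls were lost. A member counted once for each array whose removal ended its call. Leave-one-out counts of members that rose ran from 5 to 18 (main 13; 5 without control replicate 5, 6 without control replicate 6), and of members that fell from 0 to 5 (main 4; 2 without silenced replicate 4 or 7, 0 without control replicate 6). Folding genes that rose ran from 3 to 13 (main 10). In the Atf4 and serine arms the rises ran from 0 to 3 (main 1; 3 without silenced replicate 1, 0 without silenced replicate 3, 4 or 7 or control replicate 5) and the falls from 0 to 4 (main 3; 0 without control replicate 6). The folding median ran from 0.32 to 0.41 (main 0.39); it was 0.30 with the mean of a gene's probe sets, 0.24 with the second brightest probe set and 0.32 with the spike block. With the melanocyte block 22 members rose, 5 of them in the Atf4 and serine arms. With the spike block 5 rose, 4 of them folding genes and 0 in the Atf4 and serine arms, and 2 fell. Both controls share 1 spike level, so that block compares them with silenced replicates 1 and 4 alone. Shares over all genes were not counted for any of these other settings. The Atf4 and serine rises numbered 2 with median centring, either percentile filter or no trend, and 3 with array weights.

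The log2 differences that turned sign were these. Canx was 0.0006 with median centring, 0.0386 with array weights, 0.0558 with the mean of its probe sets and 0.241 with the second brightest, and ran from -0.131 to 0.0976 leaving out 1 array. Aars1 was 0.0138 with median centring, 0.0554 with the mean, 0.114 with the second probe set, 0.0021 with the melanocyte block and 0.0247 with the spike block, and ran from -0.0461 to 0.0394. Trib3 was -0.0425 with array weights and -0.0029 with the spike block, and ran from -0.0561 to 0.123; Edem1 ran from -0.0883 to 0.0071. Hsp90b1 was -0.0343 with the spike block. The second probe set gave -0.0735 for Pdia4, -0.0424 for Pdia6 and -0.311 for Dnajc3, for which the mean gave -0.0684. The cause was not tested. No paired analysis was possible because the groups share no replicate number.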
